A study of Sus scrofa with 41 samples.

Results

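The genes that direct mitochondrial biogenesis were followed in psoas major muscle of 41 pigs. The 9 genes were taken by their pig symbol from a list of names. The rule uses no measured value, though the list was drawn up with earlier results of these data known. All 9 were among the 25880 Ensembl genes counted in each pig and among the 11146 genes that passed the filter on low counts. They are 2 coactivators (PPARGC1A and PPARGC1B), 3 transcription factors of the nucleus (ESRRA, NRF1 and GABPA), 3 proteins that transcribe mitochondrial DNA (TFAM, TFB2M and POLRMT) and the polymerase that copies it (POLG).

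The aim was to relate the muscle transcriptome to feed efficiency in untreated, uncastrated males that were fed ad libitum. PolyA RNA was measured once per pig, in 13 pigs of the breed Danbred Duroc and 28 of the breed Danbred Landrace. Feed intake was recorded from a weight of 28 kg up to 100 kg, and muscle was taken directly after slaughter, at 131 to 156 days of age in Duroc and 147 to 166 days in Landrace. Feed conversion ratio (FCR) is the feed eaten per unit of weight gained, so a lower value means better efficiency. It ran from 1.83 to 2.18 (median 1.94) in Duroc and from 1.92 to 2.25 (median 2.10) in Landrace. The RNA integrity number (RIN), which falls as RNA degrades, ran from 7.0 to 8.8 in Duroc and from 6.5 to 8.3 in Landrace. The 5 labelled batches held 1, 3, 2, 3 and 4 Duroc pigs and 0, 12, 7, 2 and 7 Landrace pigs.

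Mitochondria carry their own small genome, but nearly all of their proteins are encoded in the nucleus. PPARGC1A (also called PGC-1α) and its relative PPARGC1B do not bind DNA. They are recruited by factors such as ESRRA, NRF1 and GABPA, which sit at promoters of respiratory chain genes and of the mitochondrial transcription and replication machinery. TFAM packs and bends mitochondrial DNA, TFB2M opens its promoters for the RNA polymerase POLRMT, and POLG is the catalytic subunit of the DNA polymerase. In skeletal muscle PPARGC1A is known for its rapid rise with exercise, cold and fasting and for its link to slow, oxidative fibres.

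Depth was even, with 22188911 to 25954816 read pairs counted on genes per pig. Levels are given as CPM, the read pairs of a gene scaled to a common library total, after TMM normalization (TMM CPM), and changes as log2 coefficients from one model that held FCR, RIN, age, breed and batch together, tested with edgeR's quasi-likelihood test. A gene was called at a Benjamini-Hochberg false discovery rate (FDR) under 0.1 over all 11146 genes. The 4 skeletal muscle markers found by symbol, which include actin alpha 1 (ACTA1) and muscle creatine kinase (CKM), summed to 88500 to 165900 CPM, and none was at 0. The 3 libraries of lowest RIN were Landrace pig 1 (RIN 6.5), Landrace pig 27 (RIN 6.6) and Duroc pig 10 (RIN 7.0). Landrace pigs 22 and 23 came next at RIN 7.1, so no gap in RIN sets Duroc pig 10 apart. The 3 libraries had the lowest TMM factors of all, at 0.65 to 0.76, and results that rest on them are given with and without them. Duroc pig 2 was the single pig of batch 1, so the model fits it exactly, and in the fits across breeds it informs no coefficient other than that of its own batch. It enters the joint test of the batch terms.

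The members lie on 7 chromosomes of the assembly Sscrofa11.1, with the gene bounds of RefSeq. PPARGC1A (ENSSSCG00000029275) spans chromosome 8 from 17841844 to 18527953. PPARGC1B (ENSSSCG00000014437) spans chromosome 2 from 150823338 to 150924871. ESRRA (ENSSSCG00000013028) spans chromosome 2 from 7803504 to 7812868 and POLRMT (ENSSSCG00000035693) spans the same chromosome from 77694271 to 77708099. NRF1 (ENSSSCG00000016566) lies on chromosome 18 from 19008408 to 19142678, and GABPA (ENSSSCG00000037655) on chromosome 13 from 189289513 to 189327501. TFAM (ENSSSCG00000040185) lies on chromosome 14 from 92261713 to 92279731, TFB2M (ENSSSCG00000023775) on chromosome 10 from 19028813 to 19046343, and POLG (ENSSSCG00000001838) on chromosome 7 from 54889150 to 54907167. Counts are of whole genes, so exons, introns and UTRs were not told apart.

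Of these genes 4 share transcribed sequence with a gene on the opposite strand. The library was unstranded, and the unstranded counts leave out every read pair that lies on both genes. The strand-wise columns of the files count such pairs for each gene in turn, which gives their number. ESRRA shared a median of 1225 pairs per pig with TRMT112 and kept 234 of its own. POLG shared 930 with FANCI and kept 678, POLRMT shared 600 with HCN2 and kept 362, and GABPA shared 277 with ATP5PF and kept 411. For POLG and FANCI the shared number was equal in 41 of 41 pigs, for GABPA in 40 and for POLRMT in 37. For ESRRA and TRMT112 the numbers were equal in 0 pigs but differed by 0.487% in all. Which strand the shared pairs came from cannot be told apart, so the values below are those of the part of each gene that is not shared. For PPARGC1A, PPARGC1B, NRF1, TFAM and TFB2M no pair was left out in any pig for overlap with a gene on the opposite strand.

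PPARGC1A was the member that varied most between pigs, and it was lower in Landrace. In Duroc its level was 13.6 TMM CPM at the lowest, 31.0 at the median and 97.6 at the highest, and in Landrace it was 9.95, 16.5 and 136.9. A single Landrace pig, number 24, held the highest value, and the next highest Landrace pig was at 37.1. The ranges of the breeds overlap, and the coefficient of variation over all 41 pigs was 94.1%, against 12.5% for TFAM and 35.6% for PPARGC1B, the next highest. The fitted level in Landrace was 0.613 of that in Duroc (log2 difference −0.71, SE 0.30, FDR 0.0808). It was 1 of the 2 members called for breed, where 33.1% of all genes were called (15.6% higher and 17.5% lower in Landrace, or 4.79% and 32.3% when library size alone was used). The call rested on few pigs. Leaving out any 1 of 10 pigs moved the FDR above 0.1, and without Duroc pig 10, which held 90.3 TMM CPM, the difference was −0.40 (FDR 0.295). Without the 3 pigs of lowest RIN it was −0.37 (FDR 0.368), and with batch entered as a number it was −0.87 (FDR 0.227). Within batches 2, 3, 4 and 5 the mean log2 level of Landrace minus that of Duroc was −0.67, −0.50, −0.26 and −0.70. Batches 3 and 4 held only 2 and 3 Duroc pigs. In batch 5, which held Duroc pig 10, the median was 19.15 TMM CPM in Duroc and 18.91 in Landrace. In batch 4 it was 60.62 in 3 Duroc pigs and 79.05 in 2 Landrace pigs.

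**Figure D1:**
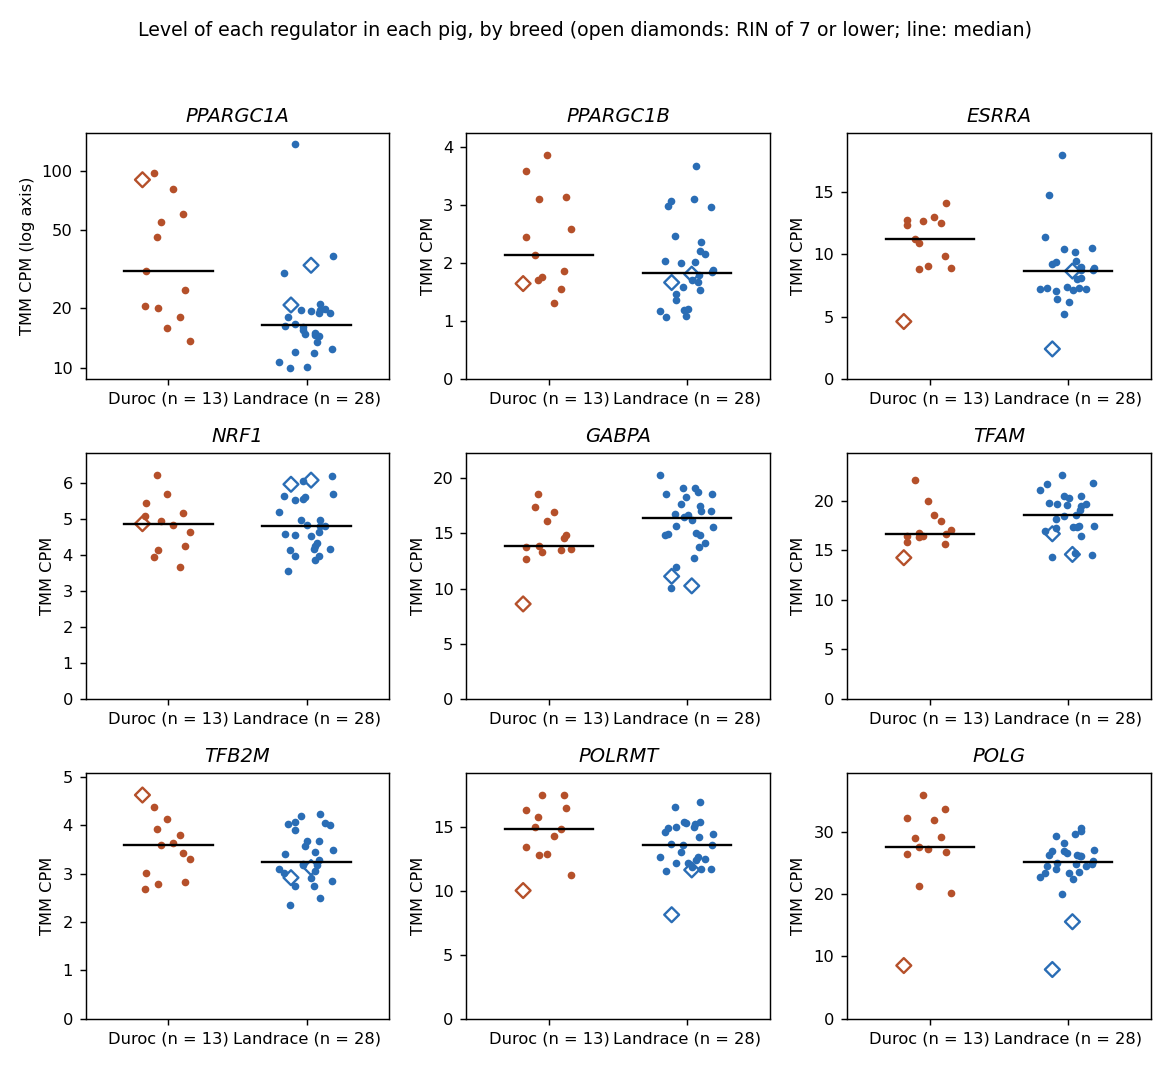
TMM CPM of the 9 genes in each of 13 Duroc and 28 Landrace pigs, with the breed median as a line and the 3 pigs with RIN of 7 or lower as open diamonds; the axis of PPARGC1A is logarithmic and the others start at 0. The breeds overlap for every gene, and PPARGC1A spans 9.95 to 136.9 while TFAM spans 14.3 to 22.6.

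PPARGC1A also differed between batches, by more than any other member in rank. In the test of all batch terms together it had p = 4.24e-07 (edgeR, FDR 0.000289), rank 16 of 11146 genes, where 24.1% of all genes were called. NRF1 was called at FDR 0.0900 and the other 7 members were not called, with FDR from 0.228 for TFAM to 0.846 for POLRMT. Without Duroc pig 2, a fit added after the data were seen, PPARGC1A had p = 3.92e-07 (edgeR, FDR 0.000434), rank 10 of 11160 genes, and NRF1 lost its call (FDR 0.128), where 23.9% of all genes were called. The single pig of batch 1 was at 97.6 TMM CPM. The 5 pigs of batch 4 were at 21.2, 54.9, 60.6, 81.0 and 136.9. In batches 2, 3 and 5 the medians were 16.3, 18.01 and 18.9, and 35 pigs there ran from 9.95 to 90.3. So the 6 pigs of batches 1 and 4 had a median of 70.8 against 18.01 in the other 35, with overlapping ranges. In batch 4 the 3 Duroc pigs ran from 54.9 to 81.0, and the 2 Landrace pigs were at 21.2 and 136.9. The lower of these lies inside the Landrace ranges of batches 2 (10.1 to 33.2) and 3 (10.6 to 37.1) and just above that of batch 5 (9.95 to 20.8). The methods of the study tie the batches to the day of slaughter, and nothing else about a batch is given in the sources used here.

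**Figure D2:**
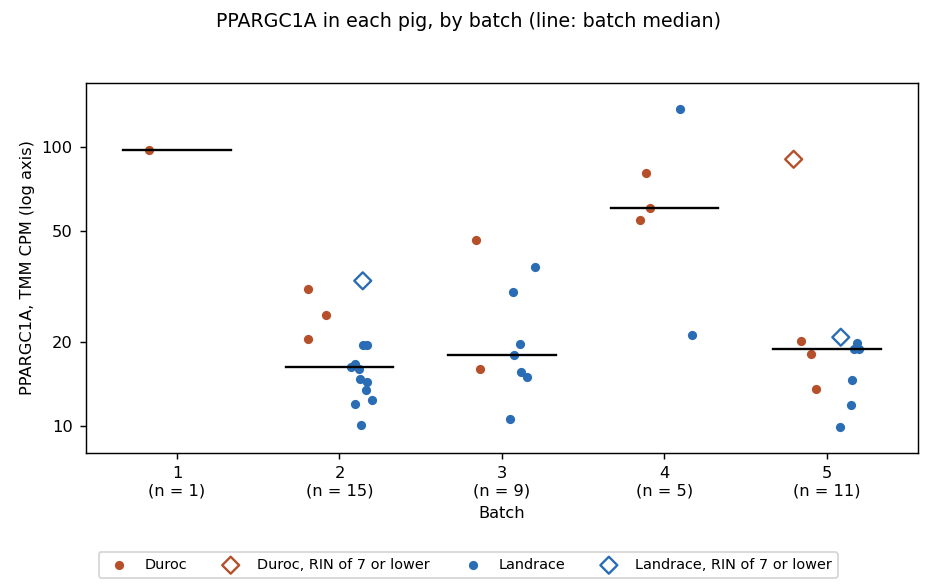
PPARGC1A in TMM CPM (logarithmic axis) in each pig, by labelled batch, with the batch median as a line; filled points are pigs with RIN above 7 and open diamonds the 3 pigs with RIN of 7 or lower. Batches 1 and 4 have medians of 97.6 and 60.6, and batches 2, 3 and 5 of 16.3, 18.01 and 18.9.

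PPARGC1B, the second coactivator, did not follow PPARGC1A. It was counted with only 24 to 123 read pairs per pig. Its lowest, median and highest levels were 1.32, 2.14 and 3.85 TMM CPM in Duroc and 1.08, 1.83 and 3.67 in Landrace. The breed difference was −0.11 (SE 0.23, FDR 0.764), smaller than its error. Across the 41 pigs the 2 coactivators had Pearson's r of −0.127 (permutation p 0.427, adjusted 0.669 over 36 pairs) and Spearman's rho of −0.042.

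ESRRA, the estrogen-related receptor through which PPARGC1A acts on oxidative genes, had a lower median in Landrace. Its call for breed depended on which pigs and which read pairs were counted. Its lowest, median and highest levels were 4.62, 11.3 and 14.1 TMM CPM in Duroc and 2.43, 8.70 and 17.9 in Landrace. Duroc pig 10 and Landrace pig 27, both of low RIN, held the lowest value of each breed, and the next lowest were 8.83 and 5.22. The breed difference was −0.45 (SE 0.22, FDR 0.125) with all pigs and −0.60 (SE 0.17, FDR 0.0107) without the 3 pigs of lowest RIN. Leaving out any 1 of 5 pigs, Duroc pig 10 and Landrace pig 27 among them, brought the FDR under 0.1. With the shared pairs counted in, it was −0.44 (FDR 0.0385). ESRRA was also tied to the slow-fibre markers. In a model with the mean of 6 slow-fibre genes in place of FCR, a test added after the data were seen, ESRRA rose by 0.22 per SD of that mean (SE 0.07, FDR 0.0827). It was 1 of 9 members called there, where 3.54% of all genes were called, and without the 3 pigs of lowest RIN the value was 0.21 (FDR 0.0135). Once the slow-fibre mean was added to the main model, the breed difference of ESRRA was −0.19 (SE 0.21, FDR 0.562).

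The other 2 estrogen-related receptors were lower in Landrace by more. ESRRB ran from 5.39 to 22.4 TMM CPM in Duroc (median 12.3) and from 1.85 to 21.5 in Landrace (median 5.39), a fitted difference of −1.71 (SE 0.29, FDR 6.71e-05). ESRRG ran from 3.01 to 35.0 in Duroc (median 4.96) and from 1.42 to 7.68 in Landrace (median 2.98), a difference of −1.37 (SE 0.27, FDR 0.000448). These differences were −1.29 and −1.41 with the slow-fibre mean in the model, and −1.64 and −0.97 without the 3 pigs of lowest RIN, and all 4 were called.

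Some cell and fibre type markers moved with breed as well, and of all genes 15.6% were called higher and 17.5% lower in Landrace. Of the 6 slow-fibre markers tested, 2 were lower in Landrace (6 of 6 when library size alone was used), and the summed level of all 6 ran from 4936 to 13650 CPM in Duroc and from 1644 to 21170 in Landrace. Of the 5 fast-fibre markers 4 were higher in Landrace, and of the 4 endothelial markers 4 were lower, with sums of 50.3 to 193 CPM in Duroc and 25.4 to 156 in Landrace. Of the 6 fibroblast markers 2 were lower and of the 5 leukocyte markers 0 were called. Of the 4 skeletal muscle markers 2 were higher and 1 lower, of the 3 satellite cell markers 1 was higher and 1 lower, and of the 2 adipocyte markers tested 1 was lower. When library size alone was used 3 fibroblast and 2 satellite cell markers were lower, and 0 of the skeletal muscle markers were higher. Under that scaling 4.79% of all genes were higher and 32.3% lower. With the 3 pigs of lowest RIN left out 1 fibroblast marker was lower and 1 skeletal muscle marker higher, where 16.1% of all genes were higher and 16.2% lower. None of these markers was at 0 over all pigs. In whole muscle, fewer cells of a type and less RNA per cell cannot be told apart, and the part of the other cell types in the values of the regulators was not tested. The slow-fibre mean was added to the model for all 9 members, and 1 of 9 was then called for breed, PPARGC1A at −0.83 (FDR 0.0613), where 28.4% of all genes were called.

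GABPA, the DNA-binding subunit of the factor GABP (also called NRF2), was the second member called for breed, higher in Landrace. Its lowest, median and highest levels were 8.61, 13.8 and 18.6 TMM CPM in Duroc and 10.1, 16.4 and 20.3 in Landrace. The difference was 0.22 (SE 0.09, FDR 0.0750), a ratio of 1.17. Within batches 2, 3, 4 and 5 the mean log2 level of Landrace minus that of Duroc was 0.27, −0.04, −0.06 and 0.12, so the sign was mixed. Leaving out any 1 of 7 pigs moved the FDR above 0.1, and with the slow-fibre mean in the model the difference was 0.23 (FDR 0.101). Scaling by library size alone gave 0.04 (FDR 0.829), and counting the shared pairs gave 0.05 (FDR 0.583). Scaling by library size alone lowered the median of all genes by 0.18 for breed, and under that scaling GABPA lay 0.22 above the median.

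NRF1, which binds promoters of respiratory chain genes and of TFAM, did not differ by breed beyond its error. Its lowest, median and highest levels were 3.67, 4.88 and 6.22 TMM CPM in Duroc and 3.56, 4.81 and 6.20 in Landrace, a difference of 0.05 (SE 0.10, FDR 0.749) that was −0.13 (FDR 0.397) when library size alone was used.

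None of the 4 genes for proteins that work on mitochondrial DNA was called for breed, and TFAM varied least between pigs of all 9 members. TFAM was at 14.3, 16.6 and 22.1 TMM CPM (lowest, median, highest) in Duroc and at 14.3, 18.5 and 22.6 in Landrace. Its difference of 0.14 (SE 0.08, FDR 0.194) was not called, and became −0.04 (FDR 0.785) when library size alone was used. TFB2M was at 2.69, 3.59 and 4.62 in Duroc and at 2.36, 3.23 and 4.23 in Landrace, a difference of −0.01 (SE 0.13, FDR 0.957). POLRMT was at 10.0, 14.8 and 17.5 in Duroc and at 8.12, 13.6 and 16.9 in Landrace, a difference of −0.02 (SE 0.10, FDR 0.906). POLG was at 8.55, 27.6 and 35.9 in Duroc and at 7.92, 25.1 and 30.6 in Landrace, with a fitted difference of 0.21 (SE 0.16, FDR 0.366). This value, from the model with all covariates, was opposite in sign to the difference in medians. Within batches 2, 3, 4 and 5 the mean log2 level of Landrace minus that of Duroc was −0.19, −0.16, −0.40 and 0.30. With the shared pairs counted in, POLG was called at 0.18 (FDR 0.0652).

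**Figure D3:**
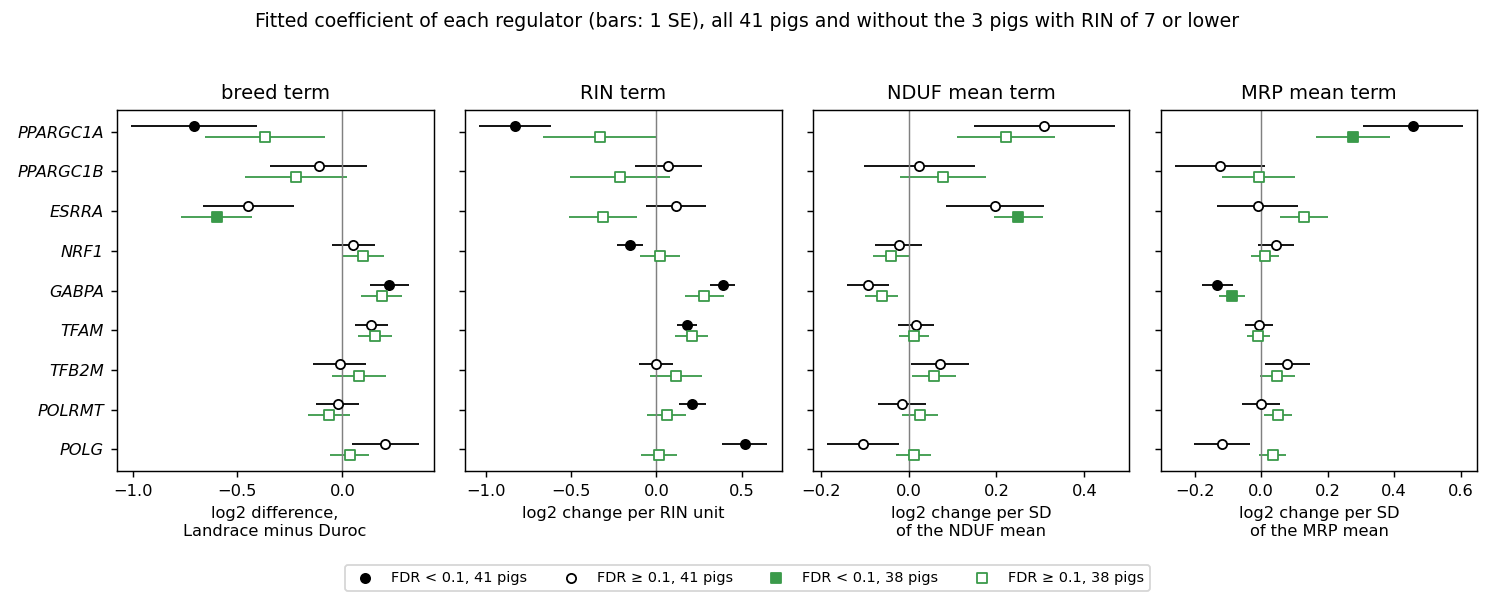
Fitted log2 coefficient of each gene with 1 SE for breed (Landrace minus Duroc), for 1 unit of RIN, and for 1 SD of the mean of the NDUF or MRP genes, from all 41 pigs (black) and from the 38 pigs with RIN above 7 (green); filled symbols have an FDR under 0.1. For RIN 6 genes are filled with all pigs and 0 without the 3 pigs, while ESRRA is filled for breed and the NDUF mean only without them.

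RNA integrity is known to shift the measured level of many transcripts. For RIN 6 of 9 members were called, 4 up and 2 down, where 51.8% of all genes were called (23.9% up and 27.9% down, or 55.8% and 7.91% when library size alone was used). POLG rose by 0.52 per unit of RIN (SE 0.13, FDR 0.00160), GABPA by 0.39 (SE 0.07, FDR 6.87e-05), POLRMT by 0.21 (SE 0.08, FDR 0.0316) and TFAM by 0.18 (SE 0.06, FDR 0.0145). PPARGC1A fell by 0.83 per unit (SE 0.21, FDR 0.00172). NRF1 had a coefficient of −0.16 (SE 0.08, FDR 0.0932) that lost its call without any 1 of 31 pigs and was 0.15 (FDR 0.109) when library size alone was used, against a median of all genes of 0.30 under that scaling. ESRRA (0.11), PPARGC1B (0.07) and TFB2M (0.00) were not called.

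No member kept its call without the 3 pigs with RIN of 7 or lower. These pigs held 7.92, 8.55 and 15.6 TMM CPM of POLG, against 20.1 to 35.9 in the other 38 pigs, without overlap. Landrace pigs 22 and 23, at RIN 7.1, were at 26.9 and 29.6. For GABPA the 3 pigs held 8.61, 10.25 and 11.11 against 10.1 to 20.3, for POLRMT 8.12, 10.0 and 11.6 against 11.2 to 17.5, and for TFAM 14.3, 14.6 and 16.7 against 14.3 to 22.6. PPARGC1A was at 90.3, 33.2 and 20.8 in them and had a median of 18.5 in the rest. Without these pigs 0 of 9 members were called (edgeR), where 17.3% of all genes were called. The coefficient of POLG was then 0.01 (SE 0.11), that of POLRMT 0.06 (SE 0.12) and that of PPARGC1A −0.33 (SE 0.33). GABPA at 0.28 (SE 0.11, FDR 0.106) and TFAM at 0.21 (SE 0.09, FDR 0.156) were the only 2 members that still had an unadjusted p under 0.05.

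Markers of fibre and cell types were called for RIN too, where 23.9% of all genes rose and 27.9% fell with all pigs. Of the 6 slow-fibre markers 5 fell, and of the 5 fast-fibre markers 2 rose and 3 fell. Of the 6 fibroblast markers 3 rose, while 2 of the 5 leukocyte, 2 of the 4 skeletal muscle and 1 of the 3 satellite cell markers fell. None of the 4 endothelial and 2 adipocyte markers was called. When library size alone was used 2 slow-fibre markers fell, 4 fibroblast, 2 endothelial, 2 skeletal muscle, 1 adipocyte and 1 satellite cell markers rose, and 1 leukocyte and 1 skeletal muscle marker fell. Under that scaling 55.8% of all genes rose and 7.91% fell. With the 3 pigs of lowest RIN left out 2 slow-fibre and 1 fast-fibre markers fell, 3 fibroblast and 1 satellite cell markers rose, and no other marker was called. There 7.45% of all genes rose and 9.81% fell. With the slow-fibre mean in the model 6 of 9 members were still called for RIN, where 48.6% of all genes were called, and the part of the other cell types was not tested.

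**Figure D4:**
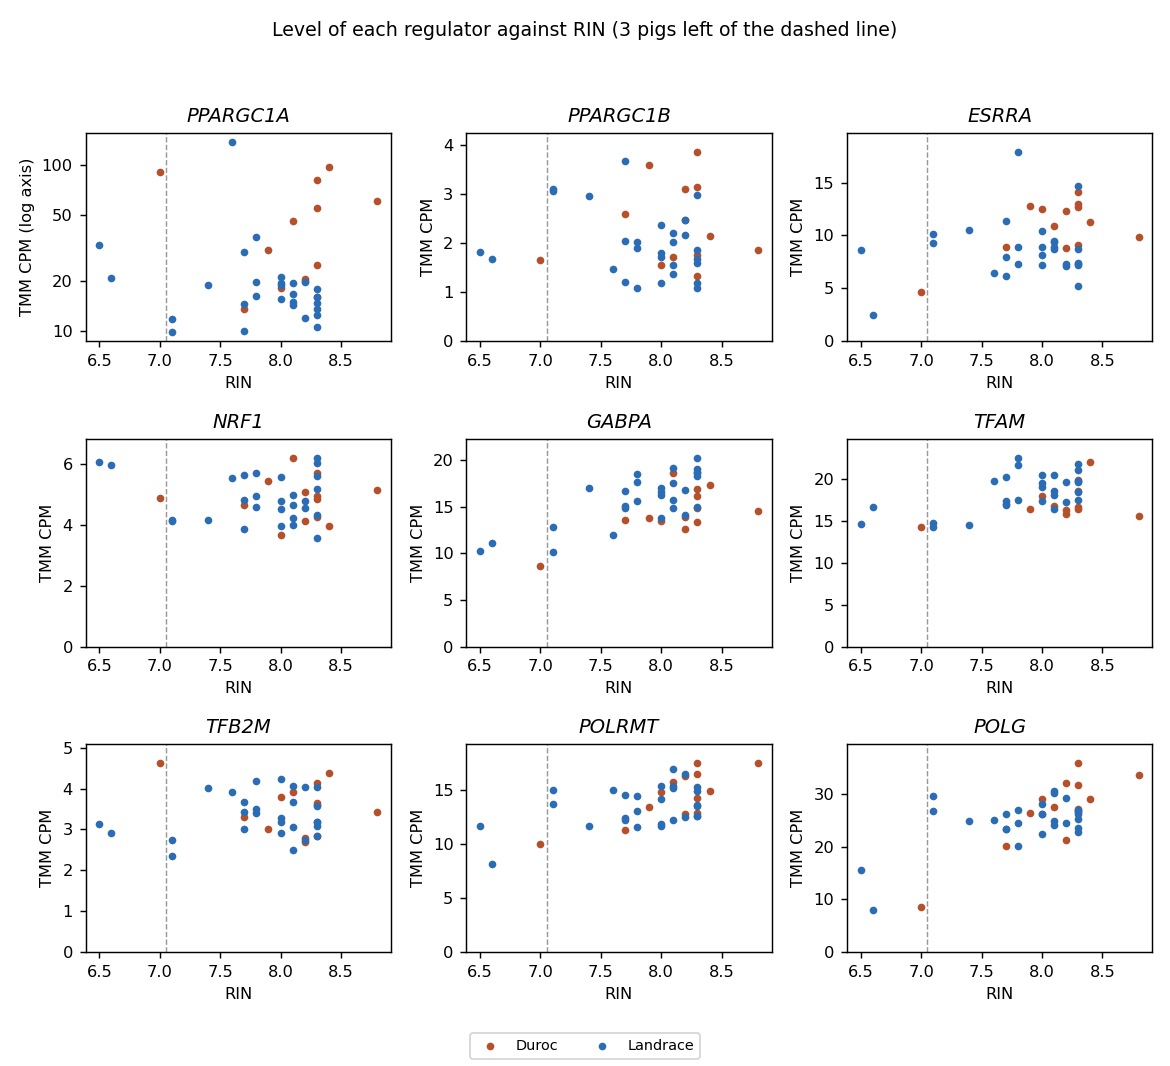
TMM CPM of each gene against RIN in 13 Duroc and 28 Landrace pigs, with a dashed line that sets off the 3 pigs with RIN of 7 or lower; the axis of PPARGC1A is logarithmic and the others start at 0. POLG sits between 7.92 and 15.6 left of the line and between 20.1 and 35.9 right of it.

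The low values of POLG and POLRMT in those 3 pigs were in the pairs counted for the gene alone, not in the pairs shared with the opposite strand. POLG had 114, 135 and 284 pairs of its own in them and 481 to 969 in the other 38 pigs, while the pairs shared with FANCI numbered 902 to 930 in them and 696 to 1165 in the rest. POLRMT had 117, 158 and 212 pairs of its own against 233 to 495, and its pairs shared with HCN2 numbered 704, 773 and 955 against 405 to 872. For ESRRA, shared pairs outnumbered its own 6.99 to 25.7 times in the 3 pigs and 4.02 to 7.76 times in the others. For GABPA the ratio was 1.24 to 2.36 against 0.3996 to 1.43. With the shared pairs counted in, the RIN coefficient of POLG was −0.02 (FDR 0.827), that of POLRMT −0.32 (FDR 0.00127) and that of ESRRA −0.34 (FDR 0.0218), so the direction of the RIN term for these genes depended on which pairs were counted.

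**Figure D5:**
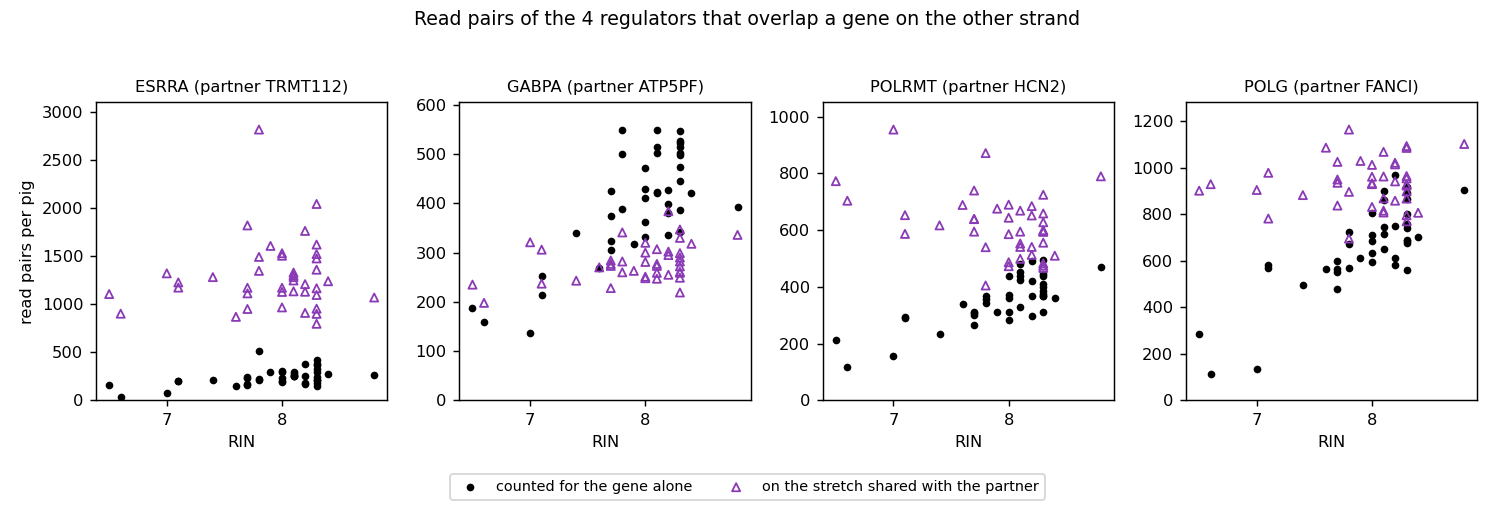
Read pairs per pig against RIN for the 4 genes that overlap a gene on the other strand, split into pairs counted for the gene alone (black points) and pairs on the stretch shared with the partner (open triangles). In the 3 pigs with RIN of 7 or lower POLG has 114 to 284 pairs of its own and 902 to 930 shared pairs.

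Whether the members followed RIN differently in the breeds was tested as an interaction. For the interaction of RIN with breed 0 of 9 members were called and 0% of all genes (edgeR). The unadjusted p was under 0.05 for POLG (p = 0.0125), PPARGC1A (p = 0.0135) and TFB2M (p = 0.0210), where 4.85% of all genes had such a p. When the 3 pigs of lowest RIN were left out POLG had p = 0.0365, PPARGC1A p = 0.996 and TFB2M p = 0.270 (edgeR). Within Landrace alone GABPA (0.38, FDR 0.00147), TFAM (0.23, FDR 0.0117) and POLG (0.43, FDR 0.0192) rose with RIN, where 42.9% of all genes were called (19.8% higher). Within Duroc, with 5 residual degrees of freedom, 0% of all genes were called, and 2 members, POLG (1.18, SE 0.35, p = 0.00867) and PPARGC1A (−1.62, SE 0.59, p = 0.0224), had an unadjusted p under 0.05 in edgeR's quasi-likelihood test, where 17.4% of all genes had one. Without Landrace pigs 1 and 27, 0 of 9 members were called within Landrace (edgeR), where 7.73% of all genes were called. POLG was then at −0.02 (FDR 0.949), GABPA at 0.28 (FDR 0.246) and TFAM at 0.28 (FDR 0.144, unadjusted p = 0.0168). Without Duroc pig 10, with 4 residual degrees of freedom, POLG was at 0.0045 (SE 0.24) and PPARGC1A at −0.07 (SE 0.89) within Duroc.

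Feed conversion ratio, the trait the study was built on, is a ratio with small variation among these pigs (SD 0.107), and no regulator was called for it. With edgeR 0 of 9 members and 0% of all genes were called, and 0 members had an unadjusted p under 0.05, where 8.68% of all genes had one. TFAM came nearest, at 0.043 per 0.1 of FCR (SE 0.029, p = 0.144 from edgeR's quasi-likelihood test, FDR 0.673). GABPA was at 0.034 (SE 0.035), NRF1 at 0.027 (SE 0.038) and PPARGC1B at 0.059 (SE 0.095), each per 0.1 of FCR. PPARGC1A was at −0.035 (SE 0.11) per 0.1 of FCR and moved between −0.170 and 0.112 as single pigs were left out, and changed sign for 2 of them. DESeq2, limma and the other settings tried also called 0 of the 9. Scaling by library size alone raised the median of all genes by 0.58 per unit of FCR, and it gave TFAM 0.103 per 0.1 of FCR (FDR 0.180).

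Within Landrace TFAM was at 0.074 per 0.1 of FCR (SE 0.039, FDR 0.953) and within Duroc at 0.017 (SE 0.060, FDR 0.956). In both breeds 0 of 9 members and 0% of all genes were called (edgeR). TFAM was at 0.077 and −0.024 without the 3 pigs of lowest RIN, and 0 of 9 members were called in both. The interaction of FCR with breed also called 0 of 9 members and 0% of all genes, and TFB2M had the smallest p of the members (p = 0.0473 from edgeR's quasi-likelihood test, FDR 0.922), where 5.22% of all genes had one under 0.05. Age called 0 of 9 members, where 1.76% of all genes were called, and the smallest p was that of NRF1 (−0.02 per day, p = 0.0250 from edgeR's quasi-likelihood test, FDR 0.236), where 16.0% of all genes had one under 0.05.

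The genes that these regulators are known to serve were summarised as 2 means of log2 levels. The NDUF mean took 28 genes for subunits of complex I of the respiratory chain, and the MRP mean took 58 genes for proteins of the mitochondrial ribosome. Both means fell as RIN rose (r = −0.705 and −0.724 over the 41 pigs), and they were close to each other (r = 0.930). For the NDUF mean, with RIN, age, breed and batch in the model, 0 of 9 members were called, where 21.6% of all genes were called, and 0 had an unadjusted p under 0.05, where 29.1% of all genes had one (edgeR). PPARGC1A was at 0.31 per SD of the mean (SE 0.16, FDR 0.198), ESRRA at 0.20 (SE 0.11, FDR 0.240) and GABPA at −0.09 (SE 0.05, FDR 0.198). Without the 3 pigs of lowest RIN ESRRA was called at 0.25 (SE 0.06, FDR 0.00244), where 22.8% of all genes were called. Without Landrace pig 27 alone it was called at 0.25 (FDR 0.0455). With the slow-fibre mean in the model PPARGC1A was called at 0.53 (FDR 0.0213) and GABPA at −0.13 (FDR 0.0657). There 33.1% of all genes were called (15.7% higher and 17.4% lower).

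For the MRP mean 2 of 9 members were called, where 35.9% of all genes were called (17.6% higher and 18.2% lower, or 10.8% and 0.135% when library size alone was used). PPARGC1A rose by 0.46 per SD of the mean (SE 0.15, FDR 0.0213), and no single pig that was left out ended the call. It was 0.28 (FDR 0.0656) without the 3 pigs of lowest RIN and 0.15 (FDR 0.425) when library size alone was used. GABPA fell by 0.13 per SD (SE 0.05, FDR 0.0321), but the call ended without any 1 of 3 pigs (Duroc pigs 4 and 6 and Landrace pig 28, FDR up to 0.1402), and its coefficient was 0.01 (FDR 0.941) when library size alone was used and 0.00 (FDR 0.923) with the shared pairs counted in. The other 7 members lay between −0.12 (PPARGC1B and POLG) and 0.08 (TFB2M), all uncalled.

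Fibre and cell type markers moved with these means as well. For the NDUF mean 6 of 6 fibroblast markers fell, with a median of −0.78 per SD, and 5 of 6 slow-fibre and 3 of 5 fast-fibre markers rose, where 11% of all genes rose and 10.6% fell. For the MRP mean 6 of 6 fibroblast markers fell (median −0.96 per SD), as did 2 of 4 endothelial, 1 of 5 leukocyte and 1 of 2 adipocyte markers, while 3 of 5 fast-fibre, 1 of 6 slow-fibre and 1 of 3 satellite cell markers rose. Of all genes 17.6% rose and 18.2% fell for the MRP mean. The 4 skeletal muscle markers were not called for either mean. These counts depended on the scaling. When library size alone was used 0 of the 6 fibroblast markers were called for either mean (medians −0.26 and −0.03), 6 slow-fibre markers rose for the NDUF mean and 4 for the MRP mean, and no other marker was called. Under that scaling 3.1% of all genes rose and 0.242% fell for the NDUF mean, and 10.8% and 0.135% for the MRP mean. With the 3 pigs of lowest RIN left out 6 of 6 fibroblast markers fell for both means, and 0 fast-fibre markers were called for the NDUF mean. The part of the fibroblast and other markers in the values of the regulators was not tested, apart from the slow-fibre mean.

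Plain correlations over the 41 pigs gave 18 values, for 9 members with 2 means, of which 10 passed an adjusted permutation p of 0.1 and 2 did after removal of RIN, age, breed and batch. Large correlations were common among all genes. For the NDUF mean 50.2% of the genes outside its list had an r at least as large in size as the weakest of the 5 members that passed (0.349), and for the MRP mean 54.7% had (5 members, 0.349). After the removal the share was 23.7% for the MRP mean (2 members, 0.441). GABPA was lowest, with Pearson's r of −0.664 for the NDUF mean and −0.689 for the MRP mean (permutation p 1e-05 for both, the smallest that 100000 permutations can give, adjusted 9e-05). Spearman's rho was −0.558 and −0.616. Without the 2 pigs farthest from the median of the mean r was −0.546 and −0.571, and within batches 2, 3 and 5 it was −0.842, −0.659 and −0.526 for the NDUF mean. After removal of RIN, age, breed and batch r for the NDUF mean was −0.314 (permutation p 0.046, adjusted 0.207). For the MRP mean it was −0.441 (permutation p 0.00404, adjusted 0.0364). Scaled by library size alone, r was −0.192 for the NDUF mean and 0.225 for the MRP mean before that removal. POLG at r = −0.601 for the NDUF mean rested on the 3 pigs of lowest RIN, since it was −0.0379 over the other 38 and rho was −0.230. PPARGC1A had r = 0.424 for the MRP mean (permutation p 0.00599, adjusted 0.0216) with rho 0.441, and r = 0.396 without the 2 farthest pigs. Within batches 2, 3 and 5 it was 0.659, 0.638 and 0.561, and after removal of the covariates it was 0.455 (adjusted 0.0364).

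Among the 36 pairs of members 6 passed an adjusted permutation p of 0.1 on the TMM scale, all positive. The weakest of them was PPARGC1A with TFB2M (r = 0.421), and 9.51% of all pairs among the 11146 genes had a positive r at least as large and 8.70% a negative one. POLRMT and POLG were closest (r = 0.816, rho 0.794, p 1e-05), and they stayed so over the 38 pigs with RIN above 7 (r = 0.743) and within Landrace (0.803) and Duroc (0.851). GABPA and TFAM had r = 0.646 (rho 0.615), and 0.557 over the 38 pigs, but 0.272 after removal of RIN, age, breed and batch (adjusted permutation p 0.166). ESRRA had r = 0.637 with POLG and 0.619 with POLRMT, but 0.214 and 0.344 over the 38 pigs. GABPA with POLG had r = 0.476 but rho 0.0148, and r = −0.197 over the 38 pigs. After removal of RIN, age, breed and batch 11 pairs passed, 5 positive and 6 negative, and of all gene pairs 8.79% had a positive r at least as large in size as the weakest of them (0.349) and 7.71% a negative one. ESRRA had r = 0.716 with POLG (adjusted permutation p 0.00018) and 0.529 with POLRMT (adjusted permutation p 0.00312), and 0.541 and 0.403 over the 38 pigs. The most negative was ESRRA with NRF1 (r = −0.508, adjusted permutation p 0.00639). POLRMT was then negative with TFAM (−0.444) and with TFB2M (−0.415), its partners at the mitochondrial promoter, while TFAM and TFB2M were positive with each other (0.410).

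The 13 mitochondrial mRNAs, which POLRMT and TFAM transcribe, were not called for breed and all fell with RIN. For breed 0 of 13 were called (edgeR), where 33.1% of all genes were called, with a median of −0.09 against 0.00 over all genes. When library size alone was used 1 was lower, where 32.3% of all genes were lower. For RIN 13 of 13 fell, with a median of −0.94 (−0.62 when library size alone was used), where 27.9% of all genes fell. Of the 13, 10 fell without the 3 pigs of lowest RIN, where 9.81% of all genes fell. The 3 with the smallest p were ND4L (−0.88 per unit of RIN, SE 0.10), ND3 (−1.04, SE 0.12) and COX1 (−1.02, SE 0.12), with FDR from 2.36e-08 to 5.40e-08. They were at −0.55, −0.73 and −0.70, all called, when library size alone was used. For FCR 0 of 13 were called.

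Of 20 other genes for the upkeep of mitochondrial DNA, 18 were tested. For breed 4 were higher and 1 lower in Landrace, where 33.1% of all genes were called. When library size alone was used 0 were higher and 2 lower, where 4.79% of all genes were higher and 32.3% lower. TOP3A, a topoisomerase that separates mitochondrial genomes, was lower in Landrace by 0.54 (SE 0.15, FDR 0.00616), at 13.8 to 31.3 TMM CPM (median 18.5) against 22.6 to 50.4 in Duroc (median 25.6). RNASEH1, which removes RNA primers, was higher by 0.29 (SE 0.08, FDR 0.00913) and MGME1, a mitochondrial exonuclease, by 0.47 (SE 0.15, FDR 0.0215), and when library size alone was used they were at 0.12 and 0.29 and not called. For RIN 2 rose and 7 fell, where 51.8% of all genes were called. When library size alone was used 9 rose and 0 fell, where 55.8% of all genes rose and 7.91% fell. RRM2B, a subunit of ribonucleotide reductase that supplies nucleotides outside cell division, rose by 1.11 (SE 0.18, FDR 9.14e-06) per unit of RIN, and was at 0.42 (FDR 0.111) without the 3 pigs of lowest RIN. RNASEH1 and SSBP1, the protein that coats single-stranded mitochondrial DNA, fell by 0.34 and 0.38, and were at −0.02 and −0.06 when library size alone was used. Without the 3 pigs 1 of the 18 rose and 2 fell, where 7.45% of all genes rose and 9.81% fell. RNASEH1 was then at −0.28 (FDR 0.0661) and SSBP1 at −0.098 (FDR 0.546).

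Of 24 partners and upstream regulators of the members, 23 were tested, and 2 were higher and 5 lower in Landrace, where 33.1% of all genes were called. When library size alone was used 1 was higher and 8 lower, where 4.79% of all genes were higher and 32.3% lower. Beside ESRRB and ESRRG, PRKAA2, a catalytic subunit of the energy sensor AMPK, had the smallest p. It was higher in Landrace by 0.52 (SE 0.11, FDR 0.00103), at 138 to 279 TMM CPM (median 218.5) against 92.4 to 246 in Duroc (median 175), and the difference was 0.33 (FDR 0.0688) when library size alone was used. For RIN 7 rose and 7 fell, where 51.8% of all genes were called. When library size alone was used 15 rose and 3 fell, where 55.8% of all genes rose and 7.91% fell. NRIP1, a corepressor that opposes PPARGC1A, rose by 1.41 per unit of RIN (SE 0.22), HCFC1, a cofactor of GABPA, by 0.50 (SE 0.08), and GABPB2, a partner subunit of GABPA, fell by 0.78 (SE 0.17). Without the 3 pigs of lowest RIN these were 0.98 (FDR 0.0352), 0.30 (FDR 0.0848) and −0.56 (FDR 0.141). Of the 23, 2 then rose and 0 fell, where 7.45% of all genes rose and 9.81% fell. When library size alone was used HCFC1 was at 0.80 and GABPB2 at −0.46, both called. For FCR 0 of the 18 and 0 of the 23 were called.

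The genes whose pattern was most like that of each member were found among 9828 genes with a symbol, by Pearson's r over the 41 pigs after removal of RIN, age, breed and batch. POLG was most like FEM1A (0.934), UBE3C (0.927) and INCA1 (0.923). ESRRA was most like MFN2 (0.889), which encodes the mitochondrial fusion protein mitofusin 2, ECSIT (0.872) and PANK4 (0.863). POLRMT followed ZNF865 (0.833), PPP6R2 (0.818) and BAG5 (0.796). PPARGC1A followed MAX (0.758), OSGIN1 (0.732) and PRCC (0.727), and PPARGC1B followed RCOR2 (0.692), ARVCF (0.672) and GSE1 (0.606). GABPA followed DIPK2A (0.733), MAP4K5 (0.710) and XRN1 (0.707), and NRF1 followed FILIP1 (0.692), TGS1 (0.641) and CYLD (0.634). TFAM followed CANX (0.723), TMEM30A (0.702) and TMED7 (0.689), and TFB2M followed INSIG2 (0.707), TXNRD1 (0.622) and RELL1 (0.612). Over the 38 pigs with RIN above 7 these 27 values lay between 0.535 (TFB2M with TXNRD1) and 0.891 (POLG with FEM1A).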

How the data were processed

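The authors trimmed 100 bp unstranded read pairs with Trimmomatic 0.39 and aligned them with STAR 2.7.1a to Sscrofa11.1 with Ensembl annotation 96, per the labels and the methods of the study. The deposited values are raw counts of uniquely aligned pairs per gene, in an unstranded column, which was used here, and 2 stranded columns, used for the shared pairs and, summed, as an alternative count. Symbols came from the reference table for 14857 of 25880 genes.

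Genes were filtered with filterByExpr, scaled by TMM and fitted in edgeR 4.0.16 (R 4.3.3) with the quasi-likelihood test on FCR, RIN and age as numbers and breed and the 5 batches as factors (32 residual degrees of freedom). In fits on the NDUF or MRP mean, scaled to SD 1, the mean took the place of FCR. FDR is Benjamini-Hochberg over the genes of a fit. Correlations took 100000 permutations. The fits were tested on simulated data first. Alternatives were DESeq2 1.42.0 (at least 5 counts in every pig), limma 3.58.1, other scalings, filters, covariates and counting, and fewer pigs.

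The members and lists were chosen with earlier results of these data known. All 9 members are named, with up to 3 genes of smallest p per wider list and term at FDR under 0.1, and the 3 genes most like each member. No 2 libraries agreed within sampling noise. Each pig is 1 sample of its breed, and p-values measure the spread between pigs. The methods word FCR as gain over feed, but the values near 2 are feed over gain. Gene lengths and sequences were not used here, so levels are not compared between genes.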

Additional observations from a re-analysis of the deposited data

Results flagged for a closer look

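The read pairs on the stretches that 4 members share with a gene on the opposite strand are absent from the unstranded counts and appear only in the stranded columns. Their median per pig was 1225 for ESRRA (with TRMT112), 277 for GABPA (with ATP5PF), 600 for POLRMT (with HCN2) and 930 for POLG (with FANCI), against 234, 411, 362 and 678 pairs counted for the member alone. These values were singled out because they are signal in columns that the comparisons used only as an alternative count, and the study has no control samples to set them against. The breeds hold 13 and 28 pigs, too many for the test of single outlying samples used here.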

How the results depend on the processing

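Depth limits PPARGC1B most, at 24 to 123 pairs per pig, and the fits within Duroc rest on 5 residual degrees of freedom. Scaling by library size alone moved the median of all genes by −0.18 for breed, 0.31 per unit of RIN and 0.58 per unit of FCR. No paired analysis was possible because the Duroc and Landrace pigs are different animals, and their replicate numbers do not pair them.

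Of the 9 members 2 were called for breed, but 0 without a filter on low counts and with batch as a number, and 1 with the slow-fibre mean added and without the 3 pigs with RIN of 7 or lower. The share of all genes called was 33.1% in the main fit, then 19.7%, 30.3%, 28.4% and 32.4% in that order. For RIN 6 were called, but 2 without the 2 pigs with RIN below 7 and 0 without the 3 pigs, and within Landrace 3 were called, but 0 without the 3 pigs. Of all genes 51.8%, 35.6% and 17.3% were called in turn, and 42.9% and 7.73% within Landrace. For the NDUF mean 0 were called, but 1 with batch as a number, without the pigs with RIN below 7 and without the 3 pigs, and 2 with the slow-fibre mean added and with the stranded columns summed. The share of all genes was 21.6% in the main fit, then 26.3%, 21.1%, 22.8%, 33.1% and 24.9% in that order. For the MRP mean 2 were called, but 1 with library size alone and 4 with the stranded columns summed, where 35.9%, 10.9% and 37.2% of all genes were called. For the batch terms 2 were called, but 1 without Duroc pig 2, where 24.1% and 23.9% of all genes were called. For RIN by breed 0 were called, but 1 without the pigs with RIN below 7, namely POLG at −1.14 (FDR 0.0153), when Duroc pig 10 is the single pig of low RIN left. Of all genes 0% and 1.1% were called there. Of 18 correlations with the means 2 passed after removal of covariates, against 10 before it and 7 with library size alone. As single pigs were left out, the members called ran from 0 to 3 for breed, from 4 to 6 for RIN, from 0 to 0 for FCR, from 0 to 1 for the NDUF mean and from 1 to 2 for the MRP mean.

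Of coefficients of single members, 14 changed sign with a call on at least 1 side, and the cause was not tested. With library size alone these were NRF1 (0.15) and TFB2M (0.31) for RIN, and GABPA (0.0086) and TFAM (0.13) for the MRP mean. That scaling moved the median of all genes by 0.31 per unit of RIN and by 0.07 per SD of the MRP mean. Without the 3 pigs the members that changed sign were NRF1 for RIN (0.021) and POLG for RIN within Landrace (−0.020). With the stranded columns summed they were ESRRA (−0.34), POLRMT (−0.32) and POLG (−0.017) for RIN, POLRMT (0.14) for the NDUF mean, and GABPA (0.0049), ESRRA (0.21), POLRMT (0.21) and POLG (0.091) for the MRP mean. Another 40 changed sign with no call on either side, 202 kept their direction and side of the threshold, 29 lost and 15 gained a call. These counts cover the members and terms with a call under at least 1 setting.

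Over all genes the RIN term called 5775, and 1929 without the 3 pigs, and within Landrace 4726 and 850. The NDUF mean called 2406, but 373 with library size alone and 3691 with the slow-fibre mean added, and the MRP mean called 3997, but 1216 with library size alone. DESeq2 called 5 genes for FCR, 1 for FCR by breed, 4 for FCR within Landrace and 10 within Duroc, where edgeR called 0. RIN by breed called 0 with edgeR, 1 with limma and 123 without the pigs with RIN below 7, and FCR within Landrace called 1 without age and 1 without the 3 pigs. Leaving out 1 pig, also in the test of the batch terms, the 3 pigs with RIN of 7 or lower, and the test on the slow-fibre mean were chosen after seeing the data.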

Other observations

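The genes behind the NDUF and MRP means were also read one by one. For RIN 27 of the 28 NDUF genes tested fell, with a median of −0.54 per unit, and of the 58 MRP genes 42 fell and 2 rose, where 51.8% of all genes were called. With library size alone 18 NDUF genes fell and 1 rose (median −0.22), and 22 MRP genes fell and 14 rose (median −0.04). Under that scaling 7.91% of all genes fell and 55.8% rose. Without the 3 pigs with RIN of 7 or lower 21 NDUF and 26 MRP genes fell and 0 rose, where 9.81% of all genes fell and 7.45% rose. For breed 7 NDUF genes were lower and 1 higher in Landrace, while 3 MRP genes were lower and 10 higher, where 33.1% of all genes were called. With library size alone 20 NDUF genes were lower and 0 higher, and 17 MRP genes were lower and 1 higher. Under that scaling 32.3% of all genes were lower and 4.79% higher. For FCR 0 of either list and 0% of all genes were called (edgeR).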
